A study of Mus musculus with 6 samples.

Results

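The genes described here are the costimulatory molecules that antigen presenting cells show to T cells and natural killer cells. They are Cd80, Cd86, Icosl and Tnfsf9, which encode ligands of the CD28 and TNF families, Cd40 and Cd83, which mark and drive the activated state of the presenting cell, and Cd24a and Cd48, a pair of lipid-anchored surface proteins. The 8 genes were chosen by name and matched to the files by Entrez gene identifier (12519 for Cd80, 12524 for Cd86, 50723 for Icosl, 21950 for Tnfsf9, 21939 for Cd40, 12522 for Cd83, 12484 for Cd24a and 12506 for Cd48). All 8 were found among the 16058 genes listed in any library, and all 8 passed the filter on low values that left 11616 genes to be tested.

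The study sequenced RNA of cells sorted as macrophages from the spleen of C57BL/6 mice, in 6 libraries. Each library is 1 gate in 1 state. The gates are Ly6cloF4/80hi, Ly6cloF4/80lo and Ly6chiF4/80lo, set by the monocyte antigen Ly6C and the macrophage antigen F4/80. The T-ALL libraries come from mice that had received 1000000 GFP-positive T cell acute lymphoblastic leukemia cells without irradiation 15 days earlier, at an age of 6 to 8 weeks, a model in which the animals survive 35 to 40 days. The normal libraries carry day 0 in the protocol, and the same strain and age. The labels give no further allele, clone or pool size, and nothing says that the 6 libraries came from separate animals. In the fit with gate and state as terms, a p-value compares a difference with how unevenly it ran across gates or states. That spread is moderated over genes, and it does not measure scatter between repeated sorts or between animals. Each gate and state has 1 library, and values are FPKM as deposited, fragment counts scaled to transcript length and to library size.

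A T cell needs a second signal beside the peptide that its receptor reads. CD80 and CD86 on the presenting cell give it through CD28 and withdraw it through CTLA4, while ICOS ligand and the 4-1BB ligand (the product of Tnfsf9) act on activated T cells through ICOS and 4-1BB. CD40 is itself a receptor: engaged by its ligand on helper T cells it signals through TRAF adaptors to NF-kB and raises CD80, CD86 and CD83 on dendritic cells and B cells. In the spleen these molecules are best known from dendritic cells, B cells and macrophages, and CD24 and CD48 are carried much more widely on blood cells, CD24 also by red cell precursors and CD48 by most leukocytes.

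The gates were checked against the genes of their antigens and against markers of other cells. Ly6c2 stood at 19.8, 21.4 and 1405 FPKM in T-ALL Ly6cloF4/80hi, Ly6cloF4/80lo and Ly6chiF4/80lo, against 11.8, 19.9 and 482 FPKM in the same normal gates, and Adgre1, which encodes F4/80, at 234, 74.7 and 47.3 FPKM in T-ALL against 529, 86.7 and 86.6 FPKM in normal. Markers of cells other than macrophages were present too: no B cell marker of 12 was at 0 in any library, and Cd79a, a subunit of the B cell receptor, stood between 450.2 and 780.2 FPKM in T-ALL and between 544.6 and 1167 FPKM in normal. Summed erythroid markers (14 genes) reached 35853 FPKM in T-ALL Ly6cloF4/80hi, against 4462 FPKM in the normal library of that gate, and summed neutrophil markers (12 genes) reached 45427 FPKM in T-ALL Ly6chiF4/80lo, against 13525 FPKM in normal. In such bulk samples fewer cells of a type and less RNA per cell cannot be told apart. The smallest FPKM steps correspond to 6650000 to 8670000 fragments in a T-ALL library and to 7410000 to 7830000 in a normal one. Counting intervals given below follow from these depths and cover counting error only.

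The sequence upstream of the start was printed for the 3 of the 8 genes that were matched in the promoter table used here (from RefSeq, GRCm38.p6). The other 5 had no match there. Of the 3, Cd80 and Icosl fell in T-ALL and Cd48 did not pass. Each line gives the 250 bases before the annotated start on the plus strand, 5′ to 3′, with CpG pairs in capitals.
Cd80 chr16:38458683-38458932: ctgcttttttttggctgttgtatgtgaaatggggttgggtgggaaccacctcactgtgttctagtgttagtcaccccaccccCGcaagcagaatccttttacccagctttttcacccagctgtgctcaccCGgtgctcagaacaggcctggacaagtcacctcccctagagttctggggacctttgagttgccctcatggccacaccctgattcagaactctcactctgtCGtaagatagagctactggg
Icosl chr10:78069118-78069367: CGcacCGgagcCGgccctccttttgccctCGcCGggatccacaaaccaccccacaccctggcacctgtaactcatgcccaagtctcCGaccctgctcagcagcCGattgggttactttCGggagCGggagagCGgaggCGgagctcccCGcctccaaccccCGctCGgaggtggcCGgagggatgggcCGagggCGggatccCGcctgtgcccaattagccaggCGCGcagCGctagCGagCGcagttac
Cd48 chr1:171681742-171681991: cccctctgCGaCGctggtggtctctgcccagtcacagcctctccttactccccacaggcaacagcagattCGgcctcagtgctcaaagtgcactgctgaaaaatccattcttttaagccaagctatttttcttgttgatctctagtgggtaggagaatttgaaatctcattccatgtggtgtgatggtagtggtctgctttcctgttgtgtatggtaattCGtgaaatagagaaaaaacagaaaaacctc
The Icosl stretch is rich in CpG, with 23 CpG pairs and 68.8% G or C, and 88.0% of 32851 promoters of this length had as many pairs or fewer. Cd80 had 3 pairs (52.8% G or C) and Cd48 had 4 (46.0%), below the median of 6 over all promoters. A search on both strands for the NF-kB consensus, the PU.1 core GAGGAA, the AP-1 site TGACTCA and the GATA core AGATAA found no match in the 3 stretches. Of all promoters 3.90%, 23.3%, 4.46% and 9.99% held these motifs, in that order. Absence says only that these letters are not in this window.

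The 8 genes spanned 2.49 to 604 FPKM. On the FPKM scale, which is per transcript length, Cd24a was the highest of the 8 in the 3 T-ALL libraries and in normal Ly6cloF4/80lo, Cd83 in normal Ly6cloF4/80hi and Cd48 in normal Ly6chiF4/80lo. Cd80 and Tnfsf9 were the lowest pair in each of the 6 libraries. Their estimated fragments ran from 28.2 to 212.6 per library for Cd80 and from 25.6 to 74.5 for Tnfsf9, which gives counting errors of up to 18.8% and 19.8%. Counting error was at most 7.41% for the other 6 genes in any library. Levels were also ranked in each library among the 16058 genes listed in any library. Cd24a lay at least at the 94.3 percentile in each library, and Cd80 between the 41.8 and the 70.5 percentile. Genes that a library does not list stand at the lower end of this ranking. Percentiles among only the genes that a library lists would therefore be lower.

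**Figure D1:**
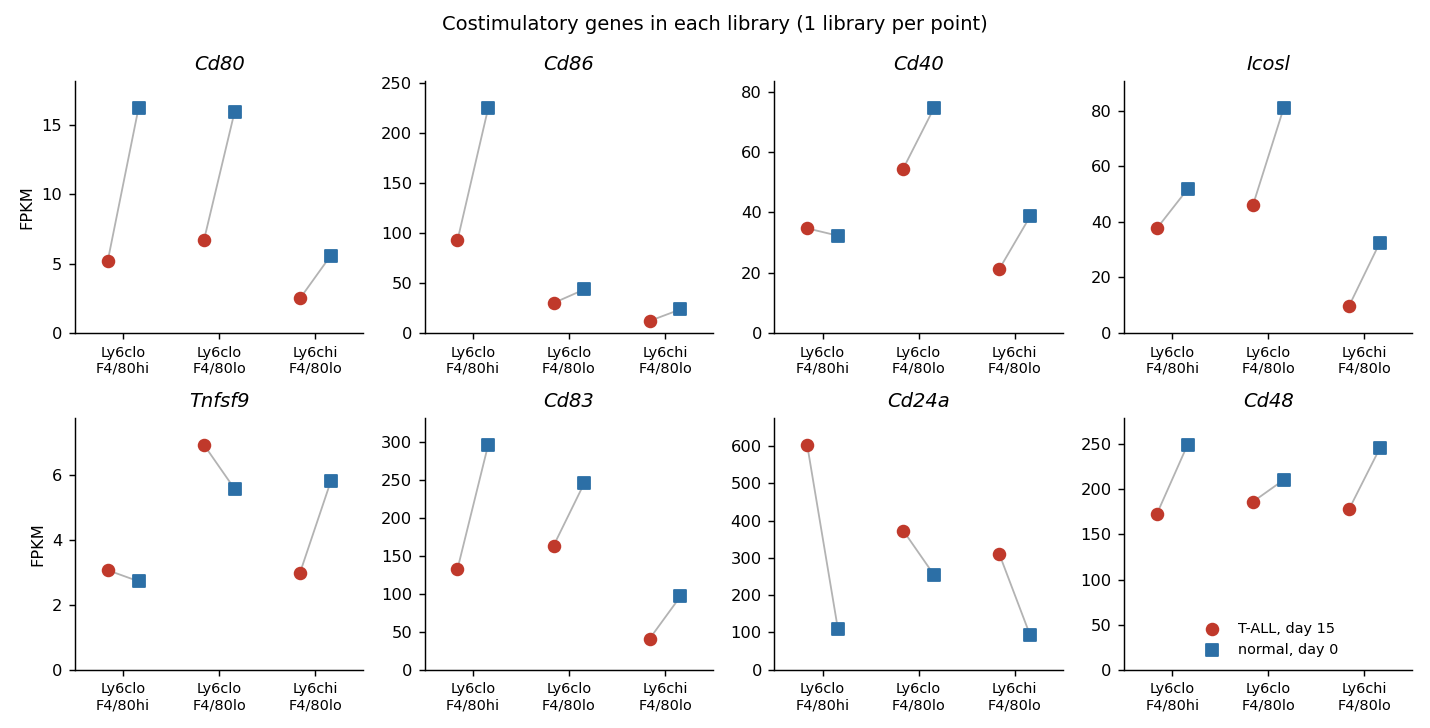
FPKM (linear axes from 0) of the 8 genes in each of the 6 libraries, by gate, with T-ALL (red circles) left of normal (blue squares) and a line joining the libraries of a gate. In all 3 gates Cd80, Cd86, Icosl, Cd83 and Cd48 lie lower in T-ALL and Cd24a higher.

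Across the 3 gates 4 of the 8 genes fell in T-ALL and 1 rose. Cd80, Cd86, Icosl and Cd83 fell to between 0.442 and 0.535 of the normal value on the FPKM + 1 scale, Cd24a rose 2.99-fold, and Cd40, Tnfsf9 and Cd48 did not pass. Calls are limma on log2(FPKM + 1) with the gate as a block, at a Benjamini-Hochberg adjusted p under 0.05 over 11616 genes. The same rule called 12.1% of all tested genes, 3.94% as lower and 8.20% as higher. The median log2 difference of the 8 genes was -0.65, against -0.03 over all tested genes, and 7 of the 8 had a value below 0, as 52.5% of all tested genes did.

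Of the CD28 ligands, Cd80 stood at 5.21, 6.67 and 2.49 FPKM in T-ALL Ly6cloF4/80hi, Ly6cloF4/80lo and Ly6chiF4/80lo, against 16.2, 15.95 and 5.58 FPKM in normal. The T-ALL library was lower in each gate, though T-ALL Ly6cloF4/80lo lies above normal Ly6chiF4/80lo. The difference was a log2 of -1.18 (SE 0.17, 95% interval -1.59 to -0.76, adjusted p = 0.0158). Within the gates Cd80 was at 0.321, 0.418 and 0.446 of its normal FPKM in Ly6cloF4/80hi, Ly6cloF4/80lo and Ly6chiF4/80lo, and the counting interval of the last ratio ran from 0.288 to 0.691.

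Cd86, the second CD28 ligand, stood at 92.7, 30.05 and 12.1 FPKM in T-ALL Ly6cloF4/80hi, Ly6cloF4/80lo and Ly6chiF4/80lo, against 225, 43.6 and 23.7 FPKM in normal. Both Ly6cloF4/80hi libraries stand above the other 4, and within each gate T-ALL is the lower. The log2 difference was -0.90 (SE 0.18, 95% interval -1.33 to -0.47, adjusted p = 0.0306). Cd86 exceeded Cd80 in every library. The ratio of their FPKM was 17.8, 4.51 and 4.87 in T-ALL Ly6cloF4/80hi, Ly6cloF4/80lo and Ly6chiF4/80lo, against 13.9, 2.74 and 4.24 in normal, and T-ALL over normal it was 1.28 (counting interval 0.981 to 1.67), 1.65 (1.27 to 2.14) and 1.15 (0.720 to 1.83) in these gates. The interval lies above 1 in Ly6cloF4/80lo and includes 1 in the other gates.

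Icosl, the ligand of ICOS, stood at 37.7, 46.0 and 9.72 FPKM in T-ALL Ly6cloF4/80hi, Ly6cloF4/80lo and Ly6chiF4/80lo, against 51.8, 81.0 and 32.5 FPKM in normal. T-ALL is lower in each gate, and T-ALL Ly6chiF4/80lo is the lowest library, while the states overlap across gates. The call was the closest to the threshold of the 5 (log2 -0.97, SE 0.24, 95% interval -1.54 to -0.39, adjusted p = 0.0498). By gate, T-ALL was at 0.727 of the normal FPKM in Ly6cloF4/80hi (counting interval 0.666 to 0.793), at 0.568 in Ly6cloF4/80lo and at 0.299 in Ly6chiF4/80lo (0.254 to 0.352). With 1 library per gate and state, a difference of the state effect between gates could not be tested.

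Tnfsf9 was low throughout and showed no common direction. It stood at 3.06, 6.92 and 2.98 FPKM in T-ALL Ly6cloF4/80hi, Ly6cloF4/80lo and Ly6chiF4/80lo, against 2.72, 5.56 and 5.79 FPKM in normal. The states overlap, with T-ALL the lower in Ly6chiF4/80lo alone. The log2 difference was -0.12 (SE 0.24, 95% interval -0.71 to 0.47, adjusted p = 0.739). In Ly6cloF4/80hi and Ly6cloF4/80lo the counting intervals of the ratio of T-ALL to normal (0.679 to 1.87 and 0.880 to 1.76) included 1, so a difference was not detectable there at this depth. In Ly6chiF4/80lo the ratio was 0.515 (0.322 to 0.822).

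Cd40, the receptor through which helper T cells license the presenting cell, stood at 34.7, 54.5 and 21.2 FPKM in T-ALL Ly6cloF4/80hi, Ly6cloF4/80lo and Ly6chiF4/80lo, against 32.3, 74.6 and 38.6 FPKM in normal. The states overlap: T-ALL is lower in Ly6chiF4/80lo and Ly6cloF4/80lo, and in Ly6cloF4/80hi the ratio of 1.08 has a counting interval (0.941 to 1.23) that includes 1. The log2 difference was -0.39 (SE 0.20, 95% interval -0.88 to 0.09, adjusted p = 0.212).

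Cd83, the surface marker of mature dendritic cells that protects class II molecules and CD86 from degradation, stood at 133, 163 and 40.98 FPKM in T-ALL Ly6cloF4/80hi, Ly6cloF4/80lo and Ly6chiF4/80lo, against 297, 246 and 96.7 FPKM in normal. T-ALL is lower in each gate, and across gates the states overlap. It fell by 0.99 on the log2 scale (SE 0.18, 95% interval -1.43 to -0.55, adjusted p = 0.0262). T-ALL was at 0.447, 0.664 and 0.424 of the normal FPKM in those gates, and the widest counting interval of the 3 ratios ran from 0.388 to 0.463.

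Cd24a, which encodes the heat-stable antigen CD24, went the other way. It stood at 604, 373 and 310.2 FPKM in T-ALL Ly6cloF4/80hi, Ly6cloF4/80lo and Ly6chiF4/80lo, against 109, 254.5 and 92.9 FPKM in normal, and each T-ALL library lies above each normal one, as in 13.8% of all tested genes. It rose by a log2 of 1.58 (SE 0.35, 95% interval 0.72 to 2.43, adjusted p = 0.0410). The ratio of T-ALL to normal was 5.52 in Ly6cloF4/80hi (counting interval 5.23 to 5.83), 1.47 in Ly6cloF4/80lo and 3.34 in Ly6chiF4/80lo. Of its 50-base words 3.90% are shared with the processed pseudogene Gm6212, so a small part of its reads could be counted for that copy or for the gene.

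Cd48, the GPI-anchored ligand of CD244 and, in the mouse, of CD2, was the most even of the 8. It stood at 173, 186 and 178 FPKM in T-ALL Ly6cloF4/80hi, Ly6cloF4/80lo and Ly6chiF4/80lo, against 249.5, 210.5 and 245.5 FPKM in normal. Every T-ALL library lies below every normal one, as in 10.9% of all tested genes, but the log2 difference of -0.39 did not pass (SE 0.16, 95% interval -0.79 to 0.01, adjusted p = 0.152). The FPKM ratio of Cd24a to Cd48 was 3.50, 2.004 and 1.74 in T-ALL Ly6cloF4/80hi, Ly6cloF4/80lo and Ly6chiF4/80lo, against 0.438, 1.21 and 0.378 in normal.

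**Figure D2:**
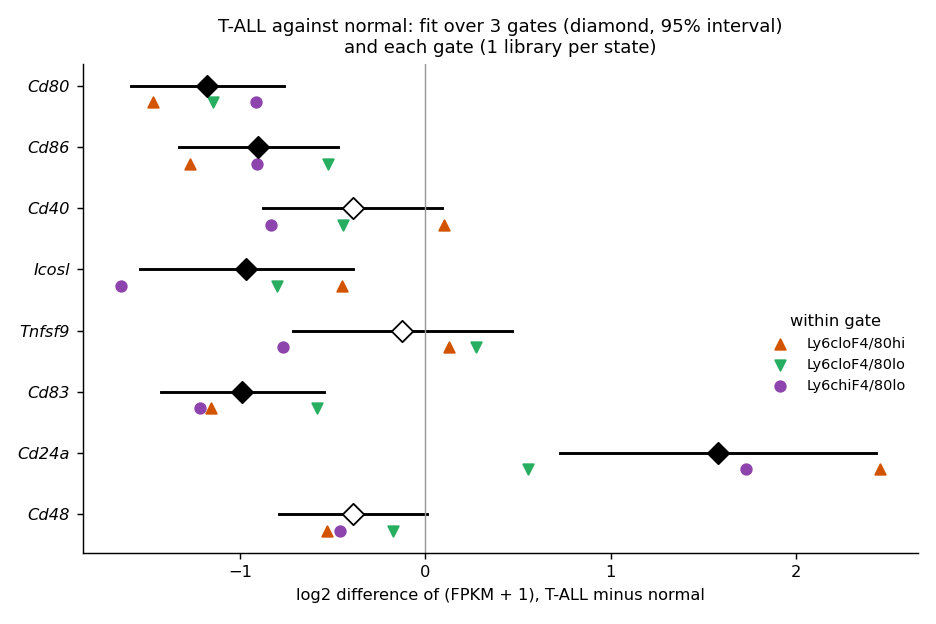
Log2 difference of (FPKM + 1), T-ALL minus normal, of the 8 genes: diamonds are the fit over 3 gates with its 95% interval (filled where the adjusted p is under 0.05), coloured points the value within each gate from 1 library per state. Cd80, Cd86, Icosl and Cd83 lie left of 0 in every gate and Cd24a right of it, with its largest value, 2.45, in Ly6cloF4/80hi.

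The 5 calls did not hold without each library. Without T-ALL or without normal Ly6cloF4/80hi, 0 of the 8 passed limma (adjusted p of Cd80 0.0540 and 0.0643, of the other 4 between 0.0716 and 0.152). In either fit 6 of the 8 had an unadjusted p under 0.05, as did 2700 and 2627 of the 11616 tested genes. The log2 values kept their sign, between -0.72 and -1.22 for the genes that fell and 1.14 for Cd24a. Without T-ALL or normal Ly6chiF4/80lo only Cd80 passed (Cd86 0.0715 and 0.0713, Icosl 0.0853 and 0.0858, Cd83 0.0824 and 0.0750, Cd24a 0.109 and 0.113), and the log2 of Icosl was then -0.63, against -0.97 with all 6 libraries. Without T-ALL or normal Ly6cloF4/80lo only Icosl was lost (0.107 and 0.110). Without a filter on low values Cd80 alone passed, and after quantile normalization Cd24a did not (adjusted p = 0.0588). With the gate left out of the model 0 of the 8 passed limma (adjusted p of the 5 genes 0.166 to 0.675). There 2 of the 8 had an unadjusted p under 0.05, as did 2024 of the 11616 tested genes.

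Counted within single gates, without a test, at least 2-fold lower values were found for 3 of 7 members in Ly6cloF4/80hi (Cd80, Cd86 and Cd83), 1 of 8 in Ly6cloF4/80lo (Cd80) and 2 of 8 in Ly6chiF4/80lo (Icosl and Cd83), on the FPKM + 1 scale. Genes were counted where either library of the gate had 5 FPKM or more. Of all such genes 6.54%, 1.52% and 4.46% were that much lower in these gates. Cd24a was at least 2-fold higher in Ly6cloF4/80hi and Ly6chiF4/80lo, as were 10.8% and 7.51% of such genes, and no member was that much higher in Ly6cloF4/80lo, where 5.69% were. The median log2 difference of the 8 members was -0.49 in Ly6cloF4/80hi, -0.48 in Ly6cloF4/80lo and -0.87 in Ly6chiF4/80lo. Cd80, Cd86, Icosl, Cd83 and Cd48 were lower in each of the 3 gates, as were 30.0% of all tested genes, and Cd24a was higher in each, as were 27.9%.

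Several marker lists moved with these genes, and their part in the differences was not tested. Over all tested genes 3.94% fell and 8.20% rose. Of 10 conventional dendritic cell markers 4 fell in T-ALL (Flt3, Xcr1, Clec9a and Cd209a), and the summed level was 157, 279 and 124 FPKM in T-ALL Ly6cloF4/80hi, Ly6cloF4/80lo and Ly6chiF4/80lo, against 225, 527 and 426 FPKM in normal. Of 13 red pulp macrophage markers 12 fell, and their sum was 7335, 437 and 455 FPKM in T-ALL, against 19344, 1090.3 and 942 FPKM in normal. Of 12 B cell markers 1 fell (Bank1), and the sum was 2132, 2618 and 1367 FPKM in T-ALL, against 2109, 3839 and 1593 FPKM in normal. None of the markers of these 3 lists was at 0 in any library. The log2 difference was below 0 in 10 of 10 conventional dendritic cell, 13 of 13 red pulp and 10 of 12 B cell markers. Their medians were -0.88, -1.31 and -0.33. Of all tested genes 52.5% had a value below 0, with a median of -0.03.

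Most cell cycle genes and some erythroid markers also passed as higher in T-ALL, where 8.20% of all tested genes did. Of 13 cell cycle genes 12 rose, with sums of 1258, 949 and 814.5 FPKM in T-ALL Ly6cloF4/80hi, Ly6cloF4/80lo and Ly6chiF4/80lo, against 243, 321 and 217 FPKM in normal. Of 14 erythroid markers 5 rose (Slc4a1, Klf1, Alas2, Rhd and Tfrc), with sums of 35853, 5172 and 802 FPKM in T-ALL, against 4462, 524 and 786 FPKM in normal. Of 10 tested T cell markers 1 fell (Cd4), and the sums over the 11 found lay between 79.0 and 110.0 FPKM in T-ALL and between 73.7 and 156 FPKM in normal. Of 8 plasma cell markers 6 rose, with sums of 1698, 1746 and 14747 FPKM in T-ALL Ly6cloF4/80hi, Ly6cloF4/80lo and Ly6chiF4/80lo, against 479, 767 and 5898 FPKM in normal. Of the markers of these lists none was at 0 in any library, and of 12 neutrophil markers 0 passed limma in either direction (1 at an unadjusted p under 0.05), while their sums were 215, 118 and 45427 FPKM in T-ALL Ly6cloF4/80hi, Ly6cloF4/80lo and Ly6chiF4/80lo, against 344, 406 and 13525 FPKM in normal, 3.36-fold higher in T-ALL Ly6chiF4/80lo. Of 9 tested monocyte markers 2 fell (Ccr2 and Nr4a1), of 9 natural killer cell markers 1 (Klrk1), and of 8 plasmacytoid dendritic cell markers 0 passed limma (2 at an unadjusted p under 0.05; 1 of these markers was at 0 in normal Ly6cloF4/80hi). Their part in the level of Cd24a was not tested.

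**Figure D3:**
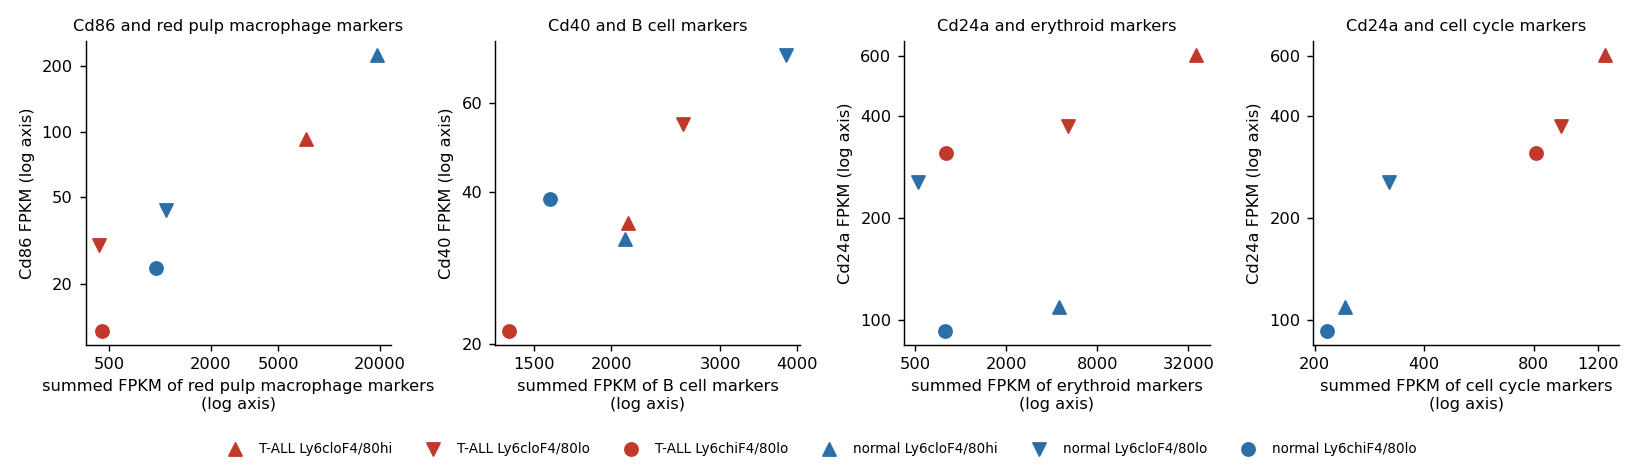
FPKM of Cd86, Cd40 and, against 2 lists, Cd24a in the 6 libraries (log axes), plotted on the summed FPKM of red pulp macrophage, B cell, erythroid and cell cycle markers (log axes), with T-ALL in red and normal in blue and a symbol for each gate. Cd86 is highest where red pulp markers are (92.7 FPKM in T-ALL and 225 FPKM in normal Ly6cloF4/80hi), and Cd40 where B cell markers are in normal Ly6cloF4/80lo. Not plotted are the conventional dendritic cell, plasmacytoid dendritic cell and T cell sums, which are also highest in that library (527, 274 and 156 FPKM). Cd24a is highest in T-ALL Ly6cloF4/80hi, as is the erythroid sum, and the 3 T-ALL libraries have the highest Cd24a and the highest cell cycle sums.

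Cd86 had the largest difference of the 8 genes in both comparisons of Ly6cloF4/80hi with another gate. Against Ly6chiF4/80lo, Ly6cloF4/80hi had higher Cd86, Cd83, Icosl and Cd80, with Cd86 8.09-fold higher, and 4 of the 8 passed with none lower (limma with the state as a block, where 12.8% of all tested genes passed, 7.10% as higher and 5.68% as lower). After median-ratio rescaling 646 genes passed as higher and 777 as lower, and after quantile normalization 549 and 739, in place of 825 and 660, and the median of all genes shifted by -0.10 and -0.12. The median log2 difference of the 8 genes was 0.85, against 0.12 over all tested genes. For Cd86, Cd83 and Icosl the libraries of the 2 gates do not overlap, as in 27.1% of all tested genes in this direction.

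Cd86 stood at 92.7 FPKM in T-ALL and 225 in normal Ly6cloF4/80hi, against 12.1 and 23.7 in Ly6chiF4/80lo, a log2 difference of 3.02 (SE 0.22, adjusted p = 0.00107). Its FPKM ratio between these gates was 7.65 in T-ALL and 9.52 in normal. Its call was lost when the state was left out of the model (adjusted p = 0.0577) and passed in the other 10 of 11 alternatives. Red pulp markers, all 13 of which were higher in Ly6cloF4/80hi, followed the same gate, as did 10 of 14 erythroid and 3 of 12 B cell markers. Adgre1 of the red pulp list and Ly6c2 of the monocyte list belong to the antigens that set the gates, so their direction followed from the sort. Lower in Ly6cloF4/80hi were 10 of 12 neutrophil, 6 of 8 plasma cell, 6 of 9 monocyte, 6 of 8 plasmacytoid dendritic cell and 3 of 9 natural killer cell markers. Of 10 conventional dendritic cell markers 2 were lower and 1 higher. Their part was not tested.

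Cd83 stood at 133 FPKM in T-ALL and 297 in normal Ly6cloF4/80hi, against 40.98 and 96.7 in Ly6chiF4/80lo (log2 1.64, SE 0.22, adjusted p = 0.00835). It did not pass without T-ALL Ly6chiF4/80lo (log2 1.47, adjusted p = 0.0518) or with the state left out (adjusted p = 0.235). Icosl stood at 37.7 FPKM in T-ALL and 51.8 in normal Ly6cloF4/80hi, against 9.72 and 32.5 in Ly6chiF4/80lo (log2 1.25, SE 0.29, adjusted p = 0.0414), a ratio of 3.87 in T-ALL and 1.59 in normal. It passed in 3 of 11 alternatives and, of the fits that leave out 1 library, only without normal Ly6chiF4/80lo (log2 1.76, adjusted p = 0.0129), while without T-ALL Ly6chiF4/80lo its log2 was 0.74 (adjusted p = 0.128).

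Cd80 had a log2 difference of 1.11 between these gates (SE 0.21, adjusted p = 0.0229), and did not pass without normal Ly6cloF4/80hi (log2 0.89, adjusted p = 0.127) or normal Ly6chiF4/80lo (log2 0.91, adjusted p = 0.104), after quantile normalization (log2 0.92, adjusted p = 0.0534) or with the state left out (adjusted p = 0.474), so it passed in 7 of 11 alternatives. The other 4 genes did not pass. Their log2 differences were 0.22 for Cd40 (adjusted p = 0.604), -0.42 for Tnfsf9 (adjusted p = 0.399), 0.60 for Cd24a (adjusted p = 0.408) and -0.01 for Cd48 (adjusted p = 0.979; 0.03 after quantile normalization). The 95% interval of Cd48 ran from -0.50 to 0.48, that of Cd24a from -0.45 to 1.64.

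Against the same Ly6chiF4/80lo gate, Ly6cloF4/80lo had higher Icosl, Cd83 and Cd80. In this comparison 3 of the 8 passed, all higher, where 4.73% of all tested genes passed (2.68% as higher and 2.05% as lower). Rescaling turned the balance over all genes here too: 158 were higher and 283 lower after median-ratio rescaling, and 161 and 239 after quantile normalization, in place of 311 and 238, with shifts of the overall median of -0.18 and -0.15. Because both comparisons share the Ly6chiF4/80lo libraries, the values of a gene in them are not independent.

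Icosl stood at 46.0 FPKM in T-ALL and 81.0 in normal Ly6cloF4/80lo, against 9.72 and 32.5 in Ly6chiF4/80lo (log2 1.71, SE 0.29, adjusted p = 0.0324). Cd83 stood at 163 and 246 FPKM in T-ALL and normal Ly6cloF4/80lo, against 40.98 and 96.7 in Ly6chiF4/80lo (log2 1.65, SE 0.22, adjusted p = 0.0188). Cd80 had a log2 of 1.25 (SE 0.21, adjusted p = 0.0314). For all 3 the libraries of the gates do not overlap, as in 35.1% of all tested genes in this direction. Of 12 B cell markers 7 were higher in Ly6cloF4/80lo and of 10 conventional dendritic cell markers 4 were higher and 1 lower. Lower there were 9 of 12 neutrophil, 7 of 8 plasma cell and 4 of 9 monocyte markers, the last with Ly6c2 of the sorted antigen among them. Of 8 plasmacytoid dendritic cell markers 4 were lower and 1 higher. Their part was not tested.

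Cd86 and Cd40 came close without passing. Cd86 had a log2 of 1.05 (adjusted p = 0.0517) and Cd40 one of 1.13 (adjusted p = 0.0568), and both passed without T-ALL Ly6cloF4/80hi (0.0315 and 0.0271) or without normal Ly6cloF4/80hi (0.0351 and 0.0303). Cd40 passed also without normal Ly6chiF4/80lo (log2 1.46, adjusted p = 0.0489). Tnfsf9 (0.47, adjusted p = 0.349), Cd24a (0.86, adjusted p = 0.255) and Cd48 (-0.08, adjusted p = 0.826) did not pass.

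Without T-ALL Ly6chiF4/80lo or without T-ALL Ly6cloF4/80lo, none of the 8 genes passed limma in this comparison. Without normal Ly6cloF4/80lo only Cd83 passed. Cd80 did not pass without normal Ly6chiF4/80lo (log2 1.05, adjusted p = 0.103), nor after median-ratio rescaling (0.0627) or quantile normalization (0.0753).

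Between the Ly6clo gates, Cd86 alone of the 8 passed, where 3.56% of all tested genes did (2.66% as higher and 0.904% as lower). It was 3.91-fold higher in Ly6cloF4/80hi than in Ly6cloF4/80lo (log2 1.97, SE 0.22, adjusted p = 0.00815), at 92.7 FPKM in T-ALL and 225 in normal, against 30.05 and 43.6 FPKM. Its libraries do not overlap between the gates, as in 13.5% of all tested genes in this direction. Without normal Ly6cloF4/80lo the log2 was 1.68 and the adjusted p 0.0542. Cd40 had a log2 of -0.91 (adjusted p = 0.111), with 34.7 and 32.3 FPKM in T-ALL and normal Ly6cloF4/80hi, against 54.5 and 74.6 FPKM in Ly6cloF4/80lo, and passed without T-ALL Ly6cloF4/80hi (log2 -1.28, adjusted p = 0.0388). Cd40 and Tnfsf9 do not overlap either, with the lower values in Ly6cloF4/80hi, as in 26.1% of all tested genes. Tnfsf9 had a log2 of -0.89 (adjusted p = 0.179) and Icosl one of -0.46 (adjusted p = 0.452).

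The remaining genes did not pass: the log2 was -0.14 for Cd80 (95% interval -0.65 to 0.36), -0.02 for Cd83 (-0.56 to 0.53; 0.09 after median-ratio rescaling), -0.26 for Cd24a (-1.31 to 0.79) and 0.07 for Cd48 (-0.42 to 0.56), with adjusted p between 0.759 and 0.978. Cd80, Cd83 and Icosl passed in both comparisons with Ly6chiF4/80lo and not between the Ly6clo gates, while Cd86 passed in both comparisons with Ly6cloF4/80hi. The median log2 difference of the 8 genes was -0.20, against -0.10 over all tested genes.

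**Figure D4:**
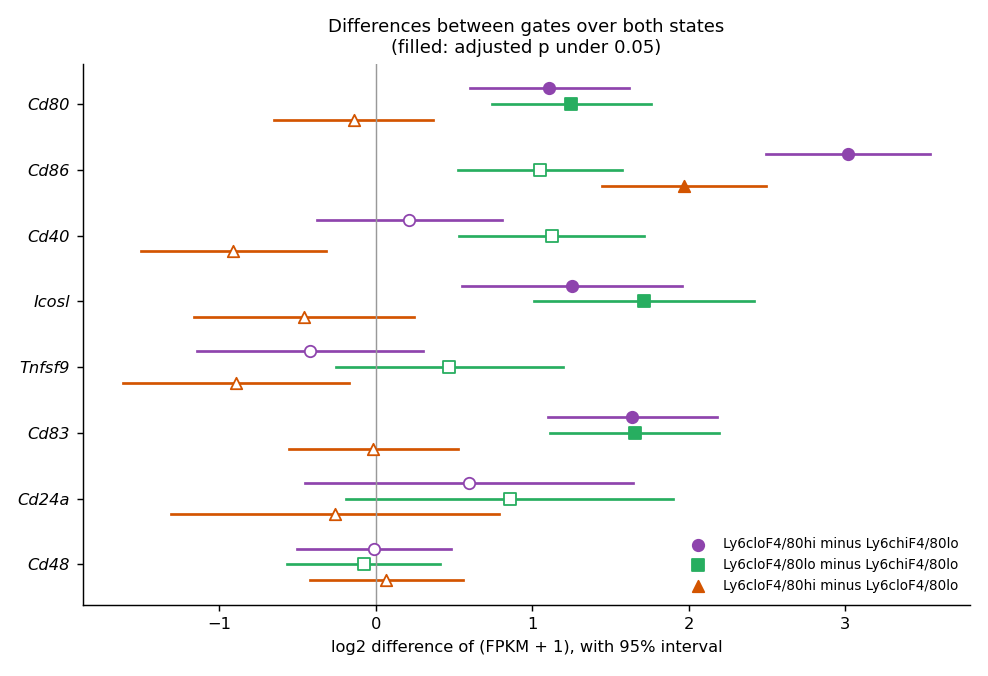
Log2 difference of (FPKM + 1) between gates, with its 95% interval, for the 8 genes over both states (filled where the adjusted p is under 0.05). Cd86 has the largest values, 3.02 for Ly6cloF4/80hi minus Ly6chiF4/80lo and 1.97 for Ly6cloF4/80hi minus Ly6cloF4/80lo, and Cd48 lies near 0 in all 3 comparisons.

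The 8 genes differed in how much of their spread over the 6 libraries went with gate and how much with state. For Cd86 the gate took 87.3% of the sum of squares of log2(FPKM + 1) and the state 11.4%. Cd40 (75.9% and 12.3%), Cd83 (69.6% and 28.1%), Icosl (63.9% and 28.5%) and Tnfsf9 (69.9% and 2.04%) also lay mostly with the gate. Cd80 was close to even, at 46.6% for gate and 51.5% for state.

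For Cd24a and Cd48 the state took most, 68.8% and 84.3%, and the gate 14.2% and 2.64%. The remainder was 28.0% for Tnfsf9, 17.0% for Cd24a and 1.30% for Cd86. Over all tested genes the gate took 60.7%, the state 28.6% and the remainder 10.7%. The spread of Cd48 is small in itself, since its residual SD was 0.13 on the log2 scale, against 0.68 for Cd24a.

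**Figure D5:**
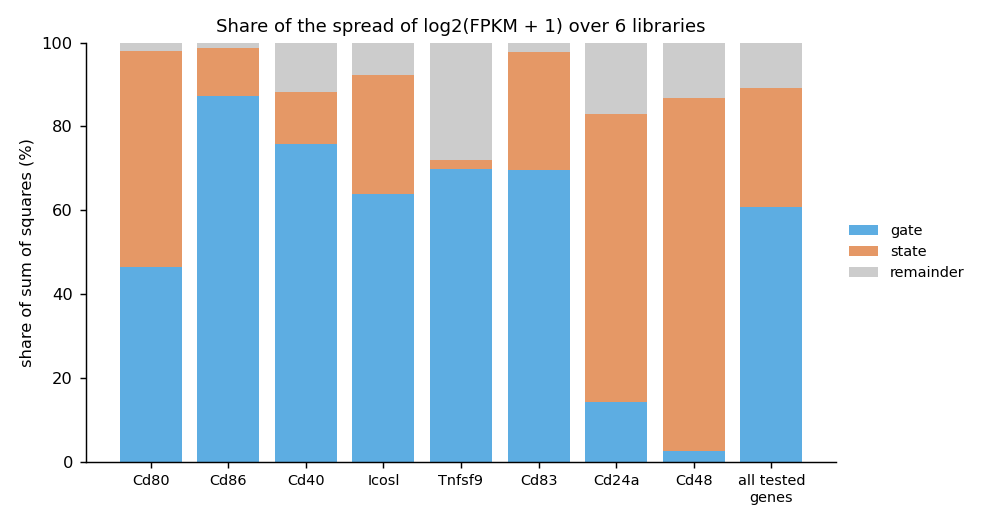
Share (%) of the sum of squares of log2(FPKM + 1) over 6 libraries that went with gate, state and the remainder, for each of the 8 genes and summed over all 11616 tested genes. Gate fills most of the bar of Cd86 (87.3%) and state most of the bar of Cd48 (84.3%).

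Several of the 8 genes ran in parallel over the 6 libraries, which is given as a description, since all points share their libraries and their gates. Of 28 pairs, Cd80 and Cd83 had the highest Pearson correlation (r = 0.947), then Icosl and Cd83 (0.942), Cd80 and Icosl (0.885) and Cd40 and Icosl (0.850). Cd80 and Cd86, which bind the same receptors, had r = 0.695. Cd24a and Cd48 ran opposite to each other (r = -0.957), and Tnfsf9 and Cd86 had r = -0.425.

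Among the marker lists, the summed level of the red pulp list had r = 0.944 with Cd86 and that of the B cell list r = 0.908 with Cd40 and 0.868 with Icosl. The conventional dendritic cell list had r = 0.830 with Cd40 and 0.713 with Icosl. With Cd40 the T cell and plasmacytoid dendritic cell lists had r = 0.737 and 0.724. Not every pair of a list and a gene is given here. The cell cycle list had r = 0.936 with Cd24a and -0.962 with Cd48. The erythroid list had r = 0.520 with Cd24a. The plasma cell list ran opposite to Cd83 (r = -0.981) and Cd80 (-0.919).

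Genes with the most similar profile were taken from those of at least 10 FPKM in 1 library, by Pearson r of log2(FPKM + 1) over the 6 libraries. For Cd86 these were Cadm1 (0.997), Paox (0.996) and Trpm2 (0.993), each highest in normal Ly6cloF4/80hi. Cadm1, a cell adhesion molecule, stood at 39.6 FPKM in T-ALL and 111 in normal Ly6cloF4/80hi, against at most 12.55 FPKM in the other 4 libraries. For Cd40 they were Ets1, a lymphoid transcription factor, Tmem19 and Il27ra (each 0.991), and Ets1 stood between 27.8 and 53.8 FPKM in T-ALL and between 37.05 and 76.3 FPKM in normal.

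For Cd80 the nearest were Ikbkg, the regulatory subunit of the kinase that releases NF-kB, Nudt16 and Zhx2 (0.991, 0.991 and 0.990). A high r says nothing of the size of a change. Ikbkg stood between 9.73 and 11.4 FPKM in T-ALL and between 11.55 and 14.3 FPKM in normal. Cd80 ran from 2.49 to 6.67 FPKM in T-ALL and from 5.58 to 16.2 FPKM in normal. For Icosl they were Rubcn, Nfrkb and Prkacb (each 0.995), and for Cd83 Rmnd1, Cdk10 and Tomm34 (0.997, 0.997 and 0.993). For Tnfsf9 they were Cggbp1, Ss18 and Inip (0.990, 0.975 and 0.971), for Cd24a Pcbp1, Med25 and Dctn2 (0.995, 0.990 and 0.988), and for Cd48 Rasgrp2, Cwc25 and Was (0.997, 0.995 and 0.990). With 6 points, between 0.129% (Tnfsf9) and 1.82% (Cd24a) of the genes compared reached r of 0.95.

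Of 8 tested genes for partners of these molecules, most of them receptors of T and natural killer cells, with Siglecg of B cells and Selp of platelets and endothelium also in the list, 1 passed between states, where 12.1% of all tested genes did. This was Icos, which fell (0.82 to 4.44 FPKM in T-ALL and 1.64 to 8.90 FPKM in normal; log2 -0.71, SE 0.17, adjusted p = 0.0478). Tnfrsf9, which encodes 4-1BB, stood at 4.72, 12.3 and 3.56 FPKM in T-ALL Ly6cloF4/80hi, Ly6cloF4/80lo and Ly6chiF4/80lo, against 1.31, 3.86 and 3.83 FPKM in normal (log2 0.89, adjusted p = 0.108). Cd28 had a log2 of 0.73 (adjusted p = 0.110) and Cd244a, the receptor for CD48, one of -0.71 (adjusted p = 0.0608). Between states 7 of the 8 had an unadjusted p under 0.05 in limma, as did 4042 of the 11616 tested genes. Against Ly6chiF4/80lo, Cd28 and Ctla4 were lower in Ly6cloF4/80hi (log2 -2.29 and -1.72, adjusted p = 0.00935 and 0.0170), and Icos was higher (1.74, adjusted p = 0.00557).

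Of 15 other tested genes of costimulation and coinhibition, ligands with some of their receptors, 2 fell in T-ALL (3.94% of all tested genes did), and both encode receptors. These were Havcr2, which encodes TIM-3 (17.1, 43.0 and 26.1 FPKM in T-ALL Ly6cloF4/80hi, Ly6cloF4/80lo and Ly6chiF4/80lo, against 35.65, 67.2 and 56.5 FPKM in normal; log2 -0.91, SE 0.15, adjusted p = 0.0214), and Timd4, the phosphatidylserine receptor TIM-4 (log2 -0.87, SE 0.16, adjusted p = 0.0265). Lgals9, a TIM-3 ligand, had a log2 of 0.49 (adjusted p = 0.176). The list's median was -0.15, against -0.03 over all tested genes. Timd4 was also higher in Ly6cloF4/80hi than in Ly6chiF4/80lo (log2 3.14, adjusted p = 0.000749) and than in Ly6cloF4/80lo (2.79, adjusted p = 0.00148), and Tnfsf13b, the B cell survival factor BAFF, was lower in Ly6cloF4/80hi than in Ly6chiF4/80lo (-2.81, adjusted p = 0.00135).

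Genes of CD40 and NF-kB signalling, which lies upstream of several of the 8, had 3 of 21 that fell and 1 that rose between states. Of all tested genes 3.94% fell and 8.20% rose. Rel, an NF-kB subunit of lymphoid and myeloid cells, stood at 23.3, 33.8 and 17.15 FPKM in T-ALL Ly6cloF4/80hi, Ly6cloF4/80lo and Ly6chiF4/80lo, against 39.1, 66.8 and 45.7 FPKM in normal (log2 -1.02, SE 0.16, adjusted p = 0.0208). The adhesion molecule gene Icam1 (-0.67, adjusted p = 0.0447) and Tnfaip3, a brake of the pathway, fell with it, and the survival gene Bcl2l1 rose (0.83, adjusted p = 0.0223). The list's median was -0.33. In Ly6cloF4/80lo against Ly6chiF4/80lo 4 of the 21 were higher, where 2.68% of all tested genes were. Among them were Relb (log2 1.69), which the maturation list below also holds, and Traf1 (1.62), each with an adjusted p of 0.0154.

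Class II genes, whose products present the peptide that costimulation accompanies, had lower values in T-ALL in all 10 of 10 members, and 4 passed: Ciita, their master transactivator, H2-DMa, H2-DMb1 and Marchf1, a ligase that removes class II and CD86 from the surface. Ciita stood at 56.9, 84.5 and 25.3 FPKM in T-ALL Ly6cloF4/80hi, Ly6cloF4/80lo and Ly6chiF4/80lo, against 73.55, 160.2 and 70.5 FPKM in normal (log2 -0.91, SE 0.22, adjusted p = 0.0482). H2-Ab1 (-0.92, adjusted p = 0.0693) and Cd74 (-0.90, adjusted p = 0.105) did not pass. The list's median was -0.81, against -0.65 for the 8 costimulatory genes. Of all tested genes 52.5% had a log2 difference below 0 and 3.94% passed as lower.

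The dendritic cell maturation list had 0 of 14 passing limma between states (3 at an unadjusted p under 0.05), with a median of 0.00. Ccr7, the chemokine receptor of migrating dendritic cells, had a log2 of -0.72 (adjusted p = 0.0577), and Il12b, a cytokine subunit, one of 0.83 (adjusted p = 0.0508). Between gates, 8 of 14 were higher in Ly6cloF4/80lo than in Ly6chiF4/80lo, where 2.68% of all tested genes were. Among them were Cacnb3 (log2 3.04), Fscn1 (2.99), Ccr7 (2.27) and Il12b (2.10), with adjusted p between 0.00673 and 0.0154.

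Immediate early genes, which respond to fresh stimulation and to tissue handling, had 7 of 15 that fell in T-ALL and a median of -1.08. Of all tested genes 3.94% fell. Atf3 had a log2 of -2.66 (SE 0.21, adjusted p = 0.00832), Dusp1 one of -1.55 (SE 0.17, adjusted p = 0.00898) and Zfp36, which destabilises cytokine messages, one of -1.39 (SE 0.21, adjusted p = 0.0168). Of the SLAM family and relatives of Cd48, 1 of 10 passed between states, where 12.1% of all tested genes did: Slamf8 (log2 -0.84, SE 0.16, adjusted p = 0.0268), and Cd84 had a log2 of -0.62 (adjusted p = 0.0759).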

How the data were processed

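Per the labels' protocols, total RNA was extracted from 6 sorted fractions and read by Illumina sequencing. The authors deposited 1 table of FPKM values per library; Bowtie2 2.2.5 and RSEM are named in the submitters' processing notes, while no source used here names the build, the annotation or the RSEM version. Identifiers were named from a RefSeq table (GRCm38.p6; 16017 of 16058 matched), and a gene a file does not list was set to 0. A gene was tested where 2 or more libraries reached 1 FPKM, which left 11616 genes; these were compared with limma 3.58.1 (R 4.3.3, statmod 1.5.0; trend and robust variance) on log2(FPKM + 1), two-sided, with gate and state as terms, which leaves 2 residual degrees of freedom. Such fold changes understate those of low genes. P-values were Benjamini-Hochberg adjusted over all tested genes, with a threshold of 0.05. The scripts were checked on simulated data.

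In all, 11 alternatives were fitted: a pseudocount of 0.1, no filter, median-ratio rescaling (size factors 0.895 to 1.08), quantile normalization, no block, and each library left out. Fragments behind each FPKM were estimated from the spacing of low values and RefSeq transcript lengths, which gave the 95% counting intervals. Likeness, sums and figures used Python 3.11.15 (numpy 2.4.6, pandas 2.3.3, matplotlib 3.10.9). The 8 genes and all gene lists were chosen with earlier results of these data known. Named beside the 8 are, for each, the 3 genes of highest r; from each pathway list up to 4 genes of largest absolute log2 difference with at least 5 FPKM in 1 library; and Cd79a for the B cell list. Other genes named for passing were chosen after their values were seen. Ahsp, Trac, Vtcn1 and Hhla2 of these lists were not analysed here.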

Additional observations from a re-analysis of the deposited data

Results flagged for a closer look

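For 4 of the 8 genes the order of a pair of gates was opposite in the 2 states, by FPKM ratios whose 95% counting intervals lie on either side of 1. With 1 library per gate and state, the difference between the states was not tested, and the intervals cover counting error only. By the same rule 15.5% of 11418 tested genes, those with a transcript length and a value above 0 in every library, had an opposite order for at least 1 of the 3 pairs of gates. Abundant genes have narrower intervals and so meet this rule more readily.

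Cd24a was 1.62-fold as high in Ly6cloF4/80hi as in Ly6cloF4/80lo in T-ALL (interval 1.56 to 1.67), and 0.430-fold as high in normal (0.405 to 0.456). Summed erythroid markers were higher in Ly6cloF4/80hi in both states, at 35853 FPKM in T-ALL and 4462 in normal, against 5172 and 524 in Ly6cloF4/80lo. The cell cycle sum turned between the states, at 1258 and 243 FPKM in T-ALL and normal Ly6cloF4/80hi, against 949 and 321 in Ly6cloF4/80lo. So did the T cell sum (110.0 and 73.7 FPKM, against 100.6 and 156) and the neutrophil sum (215 and 344 FPKM, against 118 and 406). The monocyte sum turned in the other direction, the one of Cd83 and Cd48 below (435 and 829 FPKM, against 585 and 750). The part of these lists was not tested. Cd83 had a ratio of 0.811 between these gates in T-ALL (0.772 to 0.853) and of 1.21 in normal (1.16 to 1.25). Cd48 had one of 0.927 in T-ALL (0.865 to 0.993) and of 1.19 in normal (1.11 to 1.26).

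Cd40 was 1.63-fold as high in Ly6cloF4/80hi as in Ly6chiF4/80lo in T-ALL (1.40 to 1.91), and 0.835-fold as high in normal (0.730 to 0.955). Summed conventional dendritic cell markers were 157 FPKM in T-ALL and 225 FPKM in normal Ly6cloF4/80hi, against 124 and 426 FPKM in Ly6chiF4/80lo. Other sums turned in the same direction between these gates. They were those of T cell markers (110.0 and 73.7 FPKM, against 79.0 and 136) and class II genes (14080 and 18992, against 10216 and 24513). The sum of the partner genes named above did too (168 and 200, against 135 and 215). Summed B cell markers were 2132 and 2109 FPKM in T-ALL and normal Ly6cloF4/80hi, against 1367 and 1593 FPKM in Ly6chiF4/80lo. Their part was not tested.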

How the results depend on the processing

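Without a filter on low values 370 genes and 1 member passed limma between states, 867 genes between Ly6cloF4/80hi and Ly6chiF4/80lo, 156 genes and 0 members between Ly6cloF4/80lo and Ly6chiF4/80lo, and 173 genes between the Ly6clo gates. With the block left out of the model these counts were 161 and 0, 197 and 0, 0 and 0, and 0 and 0, with 2024, 1877, 1335 and 1179 genes at an unadjusted p under 0.05. With 1 library left out, the counts of genes and members ran from 283 to 923 and 0 to 4 between states. They ran from 617 to 1277 and 2 to 3 for Ly6cloF4/80hi against Ly6chiF4/80lo, from 81 to 718 and 0 to 5 for Ly6cloF4/80lo against Ly6chiF4/80lo, and from 127 to 668 and 0 to 2 between the Ly6clo gates. In the state comparison a gate whose one library is left out adds nothing, so 2 gates remain, which by construction weakens the test. Without the filter 16058 genes were tested in place of 11616. The cause of the smaller counts was not tested, in this or in the other settings.

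Signs that turned belonged to members that did not pass. Cd83 between the Ly6clo gates was 0.086 after median-ratio rescaling and 0.00563 after quantile normalization. Cd48 for Ly6cloF4/80hi against Ly6chiF4/80lo was 0.035 after quantile normalization. With 1 library left out, the log2 difference of Tnfsf9 between states ran from -0.32 to 0.20. For Ly6cloF4/80hi against Ly6chiF4/80lo, that of Cd40 ran from -0.16 to 0.59, Tnfsf9 from -0.90 to 0.065, Cd24a from -0.061 to 1.25 and Cd48 from -0.12 to 0.095. For Ly6cloF4/80lo against Ly6chiF4/80lo, Tnfsf9 ran from -0.013 to 0.96 and Cd48 from -0.24 to 0.082. Between the Ly6clo gates, Cd80 ran from -0.36 to 0.079, Cd83 from -0.32 to 0.28, Cd24a from -1.03 to 0.51 and Cd48 from -0.092 to 0.23. The log2 differences of the members that passed kept their sign in each of the 11 alternatives.

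Depth limited Tnfsf9 and Cd80, with 25.6 to 74.5 and 28.2 to 212.6 estimated fragments per library. No paired analysis was possible by replicate number, because each gate and state has 1 library and the labels carry none. The state comparison itself pairs the libraries of a gate through the gate term, and the fit with the block left out is its unpaired form (0 of the 8 members passed, against 5).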
